A study of Homo sapiens with 18 samples.

Results

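Untreated MOLM13 cells were compared with untreated OCI-AML3 cells at the level of mRNA, over the genes of the autosomes. The comparison rests on 5 of the 18 RNA sequencing libraries of the series, namely the 2 MOLM13 and the 3 OCI-AML3 libraries labelled as controls, and on 52785 autosomal gene identifiers of the 58037 in the count table. Both are established human acute myeloid leukemia (AML) lines grown in RPMI medium with fetal bovine serum and harvested at 16 h. MOLM13 carries the MLL-AF9 fusion, in which the amino end of the histone methyltransferase MLL (gene KMT2A) is joined to AF9 (gene MLLT3), together with an internal tandem duplication of the receptor FLT3. OCI-AML3 carries a mutant NPM1 that is held in the cytoplasm, an unrearranged MLL, and known mutations of NRAS and DNMT3A. The study as a whole measured total RNA of these lines and of MV4-11 with the Menin inhibitor SNDX-50469 (VTP50469 in the labels), the BET inhibitor OTX015, both, or neither, and asked how cells with MLL rearrangements or mutant NPM1 respond. The sources do not say whether control cells received vehicle. Each genotype is a single line, so the driver lesion cannot be told apart from any other difference between the lines. The labels do not say that libraries of a line came from separate cultures, so p-values measure the spread between these libraries, which may be technical, although the study describes the treatments of both lines as done in biologic replicates.

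Menin tethers MLL to chromatin, and the MLL fusion with its partners DOT1L and the super elongation complex keeps a set of stem cell genes active, above all the HOXA genes and the HOX cofactor MEIS1. Cells with mutant NPM1 depend on the same Menin-MLL contact through unrearranged MLL, and besides the HOXA genes they are known for expression of the HOXB genes. Activated FLT3 signals mainly through STAT5, while mutant NRAS signals through the MAPK cascade, and each pathway has its own feedback genes.

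The libraries held 21447286 and 23065883 counts for MOLM13, against 49881047, 50758742 and 59711884 for OCI-AML3, so a low gene was measured with less precision in MOLM13. Mitochondrial genes took 4.36% and 4.84% of the counts in MOLM13, and 7.17% to 7.68% in OCI-AML3, and the part of depth or RNA quality in the differences was not tested. Levels are given as CPM, the counts of a gene as a share of its library total after TMM scaling, which corrects for the composition of a library. Of the markers expected of a myeloid line, LYZ (lysozyme), CD33, SPI1, CEBPA and PTPRC (the leukocyte antigen CD45) were well above the counting floor in all 5 libraries, whereas the macrophage marker CD68 was at most 0.05 CPM in MOLM13 and 0.15 to 0.30 CPM in OCI-AML3. Of 10 T, B and NK cell markers, 5 passed the count filter and 4 were higher in MOLM13. Their summed level was 46.8 and 49.8 CPM in MOLM13 against 2.58 to 3.53 CPM in OCI-AML3, most of it NKG7, a cytotoxic granule protein. CD3E, CD3G and MS4A1 were at 0 in all 5 libraries. TRAC, the constant gene of the T cell receptor alpha chain, is outside this list. It had 18.8 and 18.4 CPM in MOLM13, against 0.02, 0 and 0 CPM in OCI-AML3. Summed levels of the 10 erythroid and megakaryocyte markers were 1.66 and 1.81 CPM in MOLM13 against 2.03 to 2.57 CPM in OCI-AML3, and those of the 10 epithelial and stromal markers 1.46 and 1.94 CPM against 1.23 to 1.70 CPM. OCI-AML3 replicate 1 stood somewhat apart from replicates 2 and 3, and is named for some of the genes concerned.

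The lines differed in most of the genes they express. Of 16324 autosomal genes tested with edgeR, 5109 (31.3%) were higher in MOLM13 and 5855 (35.9%) were lower in MOLM13 when called by an adjusted p under 0.05 together with a 1.25-fold limit, which makes 67.2% called in either direction. With a limit of 4-fold, 1102 genes (6.75%) were higher and 2010 (12.3%) were lower. The share of 4-fold calls that were higher in MOLM13 was 35.4%, but 49% under limma-voom with quantile normalization. The median log2 fold change of all these genes, MOLM13 minus OCI-AML3, was -0.08. Counts of list members are to be read against these shares, because a list of genes taken without regard to function would also hold many calls. The lists and their members were chosen with earlier results of these data known, so an excess over these shares can come from that choice. In bulk RNA, fewer cells of a type and less RNA per cell cannot be told apart.

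**Figure D1:**
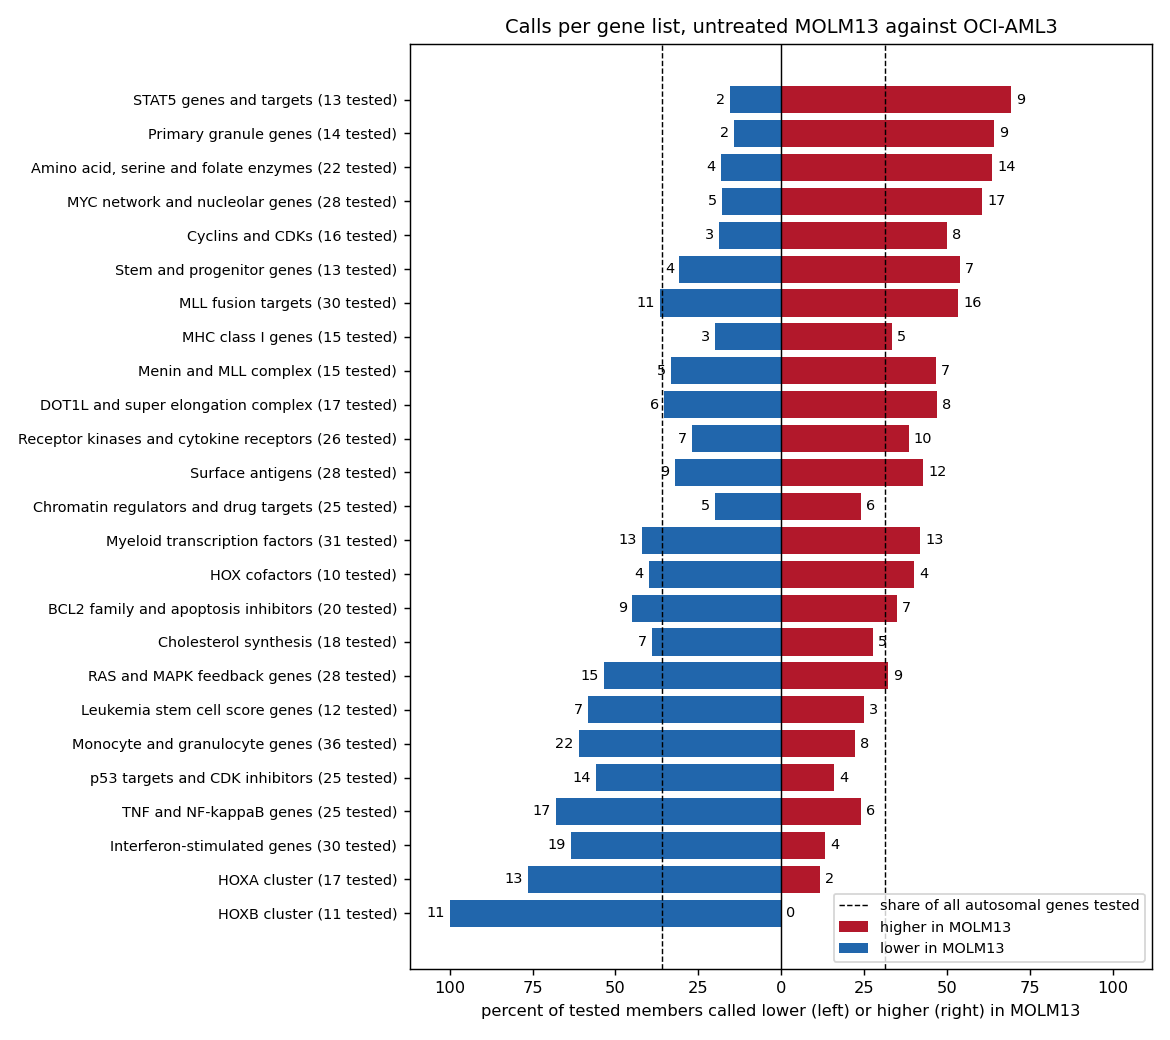
Calls per gene list in untreated MOLM13 against untreated OCI-AML3. Bars give the percent of tested list members (number in parentheses) called lower (blue, to the left) or higher (red, to the right) in MOLM13 at an adjusted p below 0.05 and 1.25-fold, with the number of genes beside each bar, and dashed lines mark the share of all autosomal genes tested, 35.9% lower and 31.3% higher. All 11 tested members of the HOXB list, which also holds noncoding RNAs, were lower in MOLM13, and 9 of 13 genes of the STAT5 list were higher. The lists were chosen with earlier results of these data known.

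Some genes were on in one line and at 0 counts in the other. There were 73 autosomal genes with 0 counts in both MOLM13 libraries and at least 10 CPM in every OCI-AML3 library, and 7 genes with the reverse pattern. With a limit of 1 CPM the numbers were 280 and 54. Since OCI-AML3 was sequenced more deeply, a level at the counting floor of 3 counts per library corresponds to 0.1464 CPM in MOLM13 and 0.0535 CPM in OCI-AML3, and folds against a line at 0 are lower bounds set by that floor. Floors and counting intervals cover counting error only, since reads copied by PCR are not independent molecules.

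ADGRA3 (ENSG00000152990), an adhesion G protein-coupled receptor, was the strongest of the genes at 0 in MOLM13. It had 0 and 0 CPM in MOLM13, against 292, 302 and 303 CPM in OCI-AML3, at least 2042-fold lower in MOLM13. MKX, a homeobox transcription factor of tendon, had 0 CPM in both MOLM13 libraries, against 202, 213 and 204 CPM in OCI-AML3, at least 1409-fold lower. UNCX, a homeobox factor of the developing somites, was likewise at 0 in MOLM13, against 173.5, 116 and 112.1 CPM in OCI-AML3, at least 914.5-fold lower, with OCI-AML3 replicate 1 above the others. Further genes with this pattern were PID1, an adaptor protein that limits insulin signalling (at least 845-fold), the adhesion receptor ADGRL2 (at least 790-fold), TIMP3, an inhibitor of matrix metalloproteinases (at least 644-fold), the kinase CDC42BPA (at least 554-fold), MARCKS, a substrate of protein kinase C (at least 488-fold), and the neutrophil chemokine CXCL1 (at least 391-fold).

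In the other direction SNX19, a sorting nexin of endosomes and lysosomes, had 51.4 and 53.4 CPM in MOLM13, against 0 CPM in all 3 OCI-AML3 libraries, at least 979-fold higher in MOLM13. ZFP57, a zinc finger protein that maintains DNA methylation at imprinted genes, had 46.9 and 45.9 CPM in MOLM13 and 0 CPM in OCI-AML3, at least 867-fold higher. FBXO17, a substrate receptor of an SCF ubiquitin ligase (at least 676-fold), LRRC61 (at least 353-fold), the metallothionein MT1H (at least 340-fold) and the polarity scaffold LIN7A (at least 319-fold) followed. MT1H belongs to a family of near-identical copies, so its counts are uncertain. Genes with 1 to 3 counts in OCI-AML3 stood as far apart. S1PR4, a lymphocyte receptor for sphingosine 1-phosphate, had 108 and 103.5 CPM in MOLM13 against 0.02, 0.04 and 0 CPM in OCI-AML3, a ratio of 5977 with a 95% counting interval from 2044 to 28995. BCL7A, a subunit of the SWI/SNF chromatin remodeler, had a ratio of 5164 (interval 1766 to 25051), and GOT1, the cytosolic aspartate aminotransferase, one of 3524 (interval 974 to 29122). APP, the amyloid precursor protein, had 199 and 202 CPM in MOLM13 against 0.04, 0.06 and 0.02 CPM in OCI-AML3, a log2 fold change of 12.35 ± 0.10 (SE).

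Promoter sequences are shown for 2 genes at 0 in each line, although counts per gene do not show which start of a gene was used. Each is the RefSeq stretch from 250 bases before to 50 bases after the start that RefSeq's table gives for the gene on GRCh38.p14, 5′ to 3′ on the gene's strand, in lower case with every CG in capitals. The promoters lie at chr4:22516017-22516316 (ADGRA3, minus strand), chr17:48595708-48596007 (HOXB-AS3, plus strand), chr7:150323105-150323404 (LRRC61, plus strand) and chr6:29681103-29681402 (ZFP57, minus strand). For LRRC61 and HOXB-AS3 that start lies well inside the gene's span in the count table.
ADGRA3: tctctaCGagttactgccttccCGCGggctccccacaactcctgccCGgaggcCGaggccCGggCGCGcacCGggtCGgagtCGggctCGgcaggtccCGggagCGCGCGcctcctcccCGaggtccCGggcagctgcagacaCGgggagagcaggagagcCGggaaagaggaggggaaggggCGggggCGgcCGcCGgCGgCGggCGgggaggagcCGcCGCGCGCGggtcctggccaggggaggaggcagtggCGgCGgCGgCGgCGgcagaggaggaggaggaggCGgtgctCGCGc
HOXB-AS3: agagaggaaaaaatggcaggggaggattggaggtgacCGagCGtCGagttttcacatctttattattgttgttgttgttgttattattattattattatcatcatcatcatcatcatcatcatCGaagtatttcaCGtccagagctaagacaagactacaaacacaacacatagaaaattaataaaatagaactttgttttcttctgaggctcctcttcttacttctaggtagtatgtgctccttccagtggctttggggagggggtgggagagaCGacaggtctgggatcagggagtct
LRRC61: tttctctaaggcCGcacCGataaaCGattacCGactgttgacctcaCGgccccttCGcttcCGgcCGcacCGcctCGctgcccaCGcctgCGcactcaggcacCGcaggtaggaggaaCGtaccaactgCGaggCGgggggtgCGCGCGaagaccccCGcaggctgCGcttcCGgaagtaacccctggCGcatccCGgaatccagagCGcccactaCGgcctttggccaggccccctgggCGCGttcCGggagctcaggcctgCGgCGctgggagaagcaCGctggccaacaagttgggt
ZFP57: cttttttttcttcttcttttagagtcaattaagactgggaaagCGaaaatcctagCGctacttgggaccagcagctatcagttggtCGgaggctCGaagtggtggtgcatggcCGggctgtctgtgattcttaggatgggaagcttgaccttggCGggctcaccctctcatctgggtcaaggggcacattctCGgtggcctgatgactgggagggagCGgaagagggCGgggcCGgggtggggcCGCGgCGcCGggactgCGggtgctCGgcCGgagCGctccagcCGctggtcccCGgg
They held 40, 6, 32 and 20 CG pairs in the order shown. Over the 10976 of 16312 tested gene symbols with an entry, the median was 25 CG per promoter (quartiles 17.5 and 33). It was 21 for 198 of the 280 genes at 0 in MOLM13 and 18 for 29 of the 54 genes at 0 in OCI-AML3, both within the quartiles of all genes. DNA methylation was not measured in these libraries, and the CG count is a description of the sequence only.

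HOX genes encode transcription factors that set position in the embryo and self-renewal in blood. Genes of the HOXA and HOXB clusters were mostly lower in MOLM13. The lists also hold noncoding RNAs of the clusters, so the counts below are not counts of transcription factors alone. In the HOXA list these are HOTAIRM1, HOXA-AS2, HOXA-AS3, HOXA10-AS, HOXA11-AS and HOTTIP, and in the HOXB list HOXB-AS1 and HOXB-AS3. All of them were called lower in MOLM13. Of 17 HOXA cluster genes tested, 13 were lower and 2 higher in MOLM13, with a median log2 fold change of -0.88. Under limma-voom with quantile normalization, 9 of them were lower and 3 higher. Of 11 HOXB cluster genes tested, all were lower, each by 4-fold or more. The summed level of the HOXB list was 0.47 and 0.75 CPM in MOLM13, against 145 to 153 CPM in OCI-AML3. Of 19 HOXC and HOXD genes only HOXC6 passed the count filter, and it stayed under 0.7 CPM in every library.

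HOXA9, the HOX factor best known for leukemic self-renewal (ENSG00000078399, chromosome 7, 27162438 to 27165537 on GRCh38), had 35.8 and 37.9 CPM in MOLM13, against 63.9, 62.8 and 59.8 CPM in OCI-AML3. The lines did not overlap and differed by -0.75 ± 0.05 on the log2 scale (SE), with an adjusted p of 6.11e-09 from edgeR. HOXA10, which drives the same progenitor program, had 36.1 and 36.3 CPM in MOLM13, against 93.0, 78.6 and 70.95 CPM in OCI-AML3, a log2 fold change of -1.16 ± 0.10, with OCI-AML3 replicate 1 again the highest. The difference was widest at the far end of the cluster. HOXA13, a posterior HOX gene of limb and gut, had 13.1 and 11.5 CPM in MOLM13, against 148, 151 and 150 CPM in OCI-AML3, a log2 fold change of -3.60 ± 0.06. HOTTIP, the long noncoding RNA transcribed beside HOXA13, had 0.05 and 0.28 CPM in MOLM13, against 38.0, 33.6 and 35.9 CPM in OCI-AML3, a log2 fold change of -7.69 ± 0.20. Since the strand setting of the counting is unknown, reads of HOXA10 and its antisense gene HOXA10-AS cannot be told apart where they overlap. HOTTIP and HOXA11-AS do not overlap HOXA13 and HOXA11 in the positions used here, but the annotation used for the counts is unknown.

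Of HOXA genes higher in MOLM13, HOXA7 was weakly expressed. It had 2.62 and 3.46 CPM in MOLM13, against 0.51, 0.30 and 0.36 CPM in OCI-AML3, a log2 fold change of 2.96 ± 0.25. HOXA2 and HOXA4 were under 0.5 CPM in every library and were not called.

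The HOXB cluster on chromosome 17 was near 0 from end to end in MOLM13. HOXB3 (48548870 to 48590241 on GRCh38) had 0 CPM in both MOLM13 libraries, against 31.2, 30.3 and 32.7 CPM in OCI-AML3, at least 214.5-fold lower. HOXB-AS3, a noncoding RNA of the cluster whose promoter is printed above, was at 0 in MOLM13, against 36.6, 35.7 and 36.3 CPM in OCI-AML3, at least 247-fold lower. HOXB2 (at least 116-fold), HOXB4, which expands blood stem cells when forced on (at least 92.1-fold), HOXB9 (at least 74.1-fold) and HOXB6 (at least 57.65-fold) were also at 0 in MOLM13. HOXB8 had 1 count in MOLM13 and 17.4 to 19.3 CPM in OCI-AML3, a ratio of 749.6 with a 95% counting interval from 134 to 29617, lower in MOLM13. HOXB7 was the only HOXB gene above 0.05 CPM in MOLM13, with 0.75 and 0.43 CPM, against 8.05, 8.04 and 7.64 CPM in OCI-AML3, a log2 fold change of -3.75 ± 0.19. HOXB1 was at 0 in all 5 libraries. In the positions used here the span of HOXB-AS3 holds HOXB5 and HOXB6, and that of HOXB3 holds HOXB4. With the strand setting unknown, reads of these genes cannot be told apart where they overlap, so their values are not fully separate measurements. The list's median log2 fold change was -11.47 as fitted and -6.21 with the genes at 0 set to their bound.

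**Figure D2:**
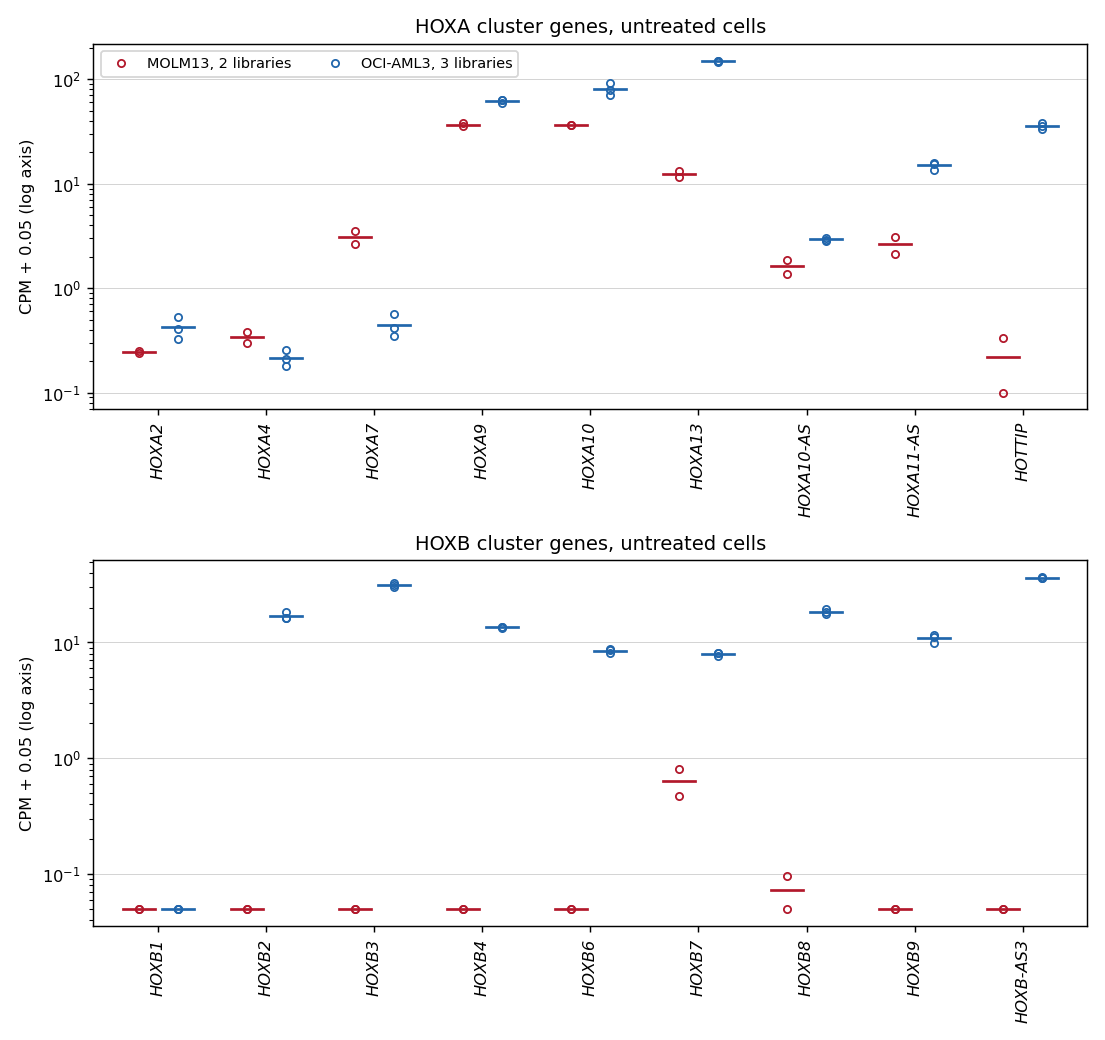
Genes of the HOXA cluster (top) and HOXB cluster (bottom) named in the text, in untreated cells. Each circle is 1 library, the bar is the mean of the line, red marks the 2 MOLM13 and blue the 3 OCI-AML3 libraries, and the vertical axis is CPM plus 0.05 on a log scale, so a gene at 0 sits at 0.05. HOXA9 differs by less than HOXA13 and HOTTIP, and the HOXB genes of MOLM13 lie at or near the bottom of the axis.

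HOX proteins bind DNA with cofactors of the MEIS and PBX families, and these did not move as a group, with 4 of 10 tested higher and 4 lower in MOLM13. MEIS1, the main cofactor of HOXA9 in leukemia, had 37.6 and 42.7 CPM in MOLM13 and 36.1, 34.3 and 35.5 CPM in OCI-AML3. Its log2 fold change of 0.19 ± 0.06 was under the fold limit, so MEIS1 was not called. PBX3, a partner of HOXA9 in leukemia, had 95.6 and 95.5 CPM in MOLM13, against 28.6, 29.2 and 29.0 CPM in OCI-AML3, a log2 fold change of 1.72 ± 0.04. MEIS2 was higher in MOLM13 as well (log2 fold change 3.39 ± 0.08). OCI-AML3 had more HOXA9 and HOXB transcript, and MOLM13 more PBX3 and MEIS2.

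Of 30 tested genes known as targets of MLL fusions, 16 were higher and 11 lower in MOLM13, 8 and 2 of them by 4-fold or more, with a median log2 fold change of 0.48. The higher ones held several genes that OCI-AML3 hardly expressed. ZNF521, a zinc finger cofactor of stem and progenitor cells, had 97.9 and 103 CPM in MOLM13, against 0.04, 0.02 and 0.03 CPM in OCI-AML3, a log2 fold change of 11.60 ± 0.12. DACH1, a transcription regulator, had 132 and 141 CPM in MOLM13, against 0.23, 0.13 and 0.16 CPM in OCI-AML3, a log2 fold change of 9.62 ± 0.09. BCL11A, a zinc finger repressor, had 80.3 and 88.2 CPM in MOLM13, against 0.23, 0.32 and 0.13 CPM in OCI-AML3, a log2 fold change of 8.57 ± 0.12. SKIDA1 (6.90 ± 0.11), the testis and leukemia cyclin CCNA1 (5.45 ± 0.08) and the Polycomb protein BMI1 (2.01 ± 0.07) were higher in MOLM13 too, and the homeobox gene NKX2-3 was at 0 in OCI-AML3, at least 151-fold higher in MOLM13.

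Other targets were expressed in both lines. MYB, a master regulator of progenitors, had 469 and 498.5 CPM in MOLM13, against 272.5, 284 and 278.5 CPM in OCI-AML3, a log2 fold change of 0.80 ± 0.04. MEF2C, a factor tied to leukemic stem cells, had a log2 fold change of 0.85 ± 0.04, JMJD1C, a histone demethylase family member, one of 1.18 ± 0.05, RUNX1 one of 1.22 ± 0.04, and LAMP5, a membrane protein of dendritic cells, one of 1.05 ± 0.03. Other targets were lower in MOLM13. CDK6, the kinase that drives G1 with D cyclins, had 235 and 241 CPM in MOLM13, against 559, 625.5 and 627.5 CPM in OCI-AML3, a log2 fold change of -1.34 ± 0.05. TCF4, the factor of dendritic cell precursors, had a log2 fold change of -2.78 ± 0.08 and RUNX2 one of -1.76 ± 0.06. ERG, an ETS factor of stem cells, had 1 count in MOLM13 and 8.10 to 8.58 CPM in OCI-AML3, lower in MOLM13 by a ratio of 343.7 (95% counting interval 61.6 to 13584).

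The machinery that acts on these targets differed by small amounts. In the Menin and MLL complex list 7 of 15 genes were higher and 5 lower in MOLM13, none by 4-fold, but without scaling factors 3 were higher and 5 lower. MEN1, which encodes Menin, had 142 and 149 CPM in MOLM13, against 110, 104 and 104 CPM in OCI-AML3, a log2 fold change of 0.46 ± 0.04. This call rests on the scaling, since MEN1 had 0.26 without scaling factors, under the fold limit. NPM1 had 1743 and 1706 CPM in MOLM13, against 1362, 1375 and 1363 CPM in OCI-AML3, and its direction depended on the normalization, with 0.34 ± 0.03 under TMM, 0.14 without scaling factors and -0.44 under limma-voom with quantile normalization. KMT2A had a log2 fold change of -0.39 ± 0.06 and XPO1, the nuclear export receptor that carries mutant NPM1 to the cytoplasm, one of -1.002 ± 0.041. Reads of the MLL-AF9 fusion transcript count toward KMT2A and MLLT3, so levels of these genes in MOLM13 mix fused and normal transcripts. MLLT3 had 14.4 and 16.3 CPM in MOLM13, against 4.33, 4.57 and 4.93 CPM in OCI-AML3, a log2 fold change of 1.73 ± 0.09.

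Of 17 genes for DOT1L, its partners and the super elongation complex, 8 were higher and 6 lower in MOLM13, or 5 and 7 without scaling factors. DOT1L, the histone H3 lysine 79 methyltransferase, had 347 and 352 CPM in MOLM13, against 152, 147 and 154 CPM in OCI-AML3, a log2 fold change of 1.21 ± 0.03. AFF3, a scaffold of the elongation complex, had a log2 fold change of 2.61 ± 0.05, while the elongation factor ELL2 had one of -3.56 ± 0.14. Among 25 chromatin regulators and drug targets, 6 were higher and 5 lower (6 and 8 without scaling factors) and 14 were not called, a smaller share of calls than the 67.2% of all genes. DNMT1, the maintenance DNA methyltransferase, had a log2 fold change of 0.65 ± 0.04, DNMT3A, the de novo methyltransferase, one of -0.97 ± 0.05, and IDH1, the cytosolic isocitrate dehydrogenase, one of -1.41 ± 0.04.

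FLT3 and the STAT5 feedback genes CISH, SOCS1 and SOCS2 were higher in MOLM13. FLT3, the growth factor receptor of early progenitors (ENSG00000122025, chromosome 13, 28003274 to 28100576 on GRCh38), had 265 and 280 CPM in MOLM13, against 26.7, 28.0 and 28.2 CPM in OCI-AML3, so they differed by 3.30 ± 0.04 on the log2 scale, with an adjusted p of 1.56e-16 from edgeR. Of 13 tested genes of the STAT5 list, which holds STAT5A and STAT5B besides 11 of their targets, 9 were higher and 2 lower in MOLM13, 6 and 0 of them by 4-fold or more, with a median log2 fold change of 1.84. Among the 11 targets, 7 were higher and 2 lower, 5 and 0 of them by 4-fold or more. The receptors as a whole had no such lean, with 10 of 26 higher and 7 lower, or 9 and 10 without scaling factors. CSF3R, the receptor for G-CSF, had a log2 fold change of 1.43 ± 0.04, and IL6ST, the shared signal chain of the IL-6 family, one of -3.54 ± 0.16.

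The 2 members of the STAT5 list with the motif TTCNNNGAA, the core that STAT5 binds, were CISH and BCL6, and both promoters are shown with that motif in capitals. They are RefSeq sequences of GRCh38.p14, at chr3:50611725-50612024 (CISH, minus strand) and chr3:187745419-187745718 (BCL6, minus strand).
CISH: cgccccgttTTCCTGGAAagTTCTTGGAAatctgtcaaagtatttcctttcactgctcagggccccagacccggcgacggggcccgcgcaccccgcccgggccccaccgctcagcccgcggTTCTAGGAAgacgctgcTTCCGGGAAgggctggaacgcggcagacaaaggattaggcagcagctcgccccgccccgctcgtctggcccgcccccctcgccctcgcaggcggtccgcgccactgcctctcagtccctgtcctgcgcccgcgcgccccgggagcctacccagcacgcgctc
BCL6: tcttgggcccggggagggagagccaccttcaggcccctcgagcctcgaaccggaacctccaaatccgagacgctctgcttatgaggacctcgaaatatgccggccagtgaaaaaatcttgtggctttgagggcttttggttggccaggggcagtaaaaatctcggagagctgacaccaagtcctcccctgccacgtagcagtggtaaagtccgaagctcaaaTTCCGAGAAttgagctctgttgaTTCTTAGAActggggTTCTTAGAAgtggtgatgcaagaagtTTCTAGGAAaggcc
The motif is its own reverse complement in its fixed letters, so 1 strand was read. It was found 4 times in each, in 2 of the 10 list members with an entry, in 2689 of 35116 promoters of this length (7.66%), and 4 times or more in 7 of them. A match describes letters and not a bound site, and the 2 genes moved in opposite directions.

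CISH, a feedback inhibitor of cytokine receptors, had 62.8 and 64.5 CPM in MOLM13, against 12.2, 10.75 and 12.04 CPM in OCI-AML3, a log2 fold change of 2.45 ± 0.06. BCL6, a transcriptional repressor, had 2.77 and 2.84 CPM in MOLM13, against 7.535, 7.33 and 7.755 CPM in OCI-AML3, a log2 fold change of -1.43 ± 0.12. SOCS2, another feedback inhibitor, had 35.1 and 39.85 CPM in MOLM13, against 0.97, 1.25 and 1.24 CPM in OCI-AML3, a log2 fold change of 5.01 ± 0.10. SOCS1 (4.85 ± 0.17), the survival kinase PIM1 (2.92 ± 0.08) and the cytokine OSM (1.84 ± 0.13) were higher in MOLM13 as well, while PIM3 and BCL2L1 were not called and ID1, a repressor of differentiation, was lower (-1.46 ± 0.12). The factor and a cell cycle target differed most. STAT5A had 71.7 and 74.0 CPM in MOLM13, against 1.33, 0.69 and 0.79 CPM in OCI-AML3, a log2 fold change of 6.29 ± 0.12, and STAT5B one of 1.44 ± 0.05. CCND2, the D cyclin under STAT5 control, had 134 and 144 CPM in MOLM13, against 0.04, 0.13 and 0.08 CPM in OCI-AML3, a log2 fold change of 10.67 ± 0.11.

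In the RAS and MAPK list 15 of 28 genes were lower and 9 higher in MOLM13, with a median log2 fold change of -0.55. By 4-fold or more, 3 were lower and 4 higher. Of all autosomal genes tested, 35.9% were lower and 31.3% higher. DUSP4, a phosphatase that switches off ERK, had 0.50 and 0.28 CPM in MOLM13, against 10.1, 10.4 and 9.31 CPM in OCI-AML3, a log2 fold change of -4.66 ± 0.20. PHLDA1, an early response gene (-4.20 ± 0.19), ETV1, an ETS factor induced by ERK (-3.57 ± 0.29), SPRY4, an inhibitor of receptor signalling (-1.45 ± 0.07), EGR1, an immediate early factor (-1.39 ± 0.08), and DUSP6, the phosphatase most used as an ERK readout (-1.26 ± 0.08), were lower in MOLM13. The list was not uniform, since SPRY1 (3.58 ± 0.12), DUSP2 (2.07 ± 0.08) and ETV4 (2.06 ± 0.06) were higher in MOLM13, and DUSP5, ETV5 and FOS were not called (DUSP5, at 0.27, was called higher under 3 alternatives, at 0.37 to 0.47). NRAS itself had 68.4 and 72.1 CPM in MOLM13, against 107, 112.1 and 107 CPM in OCI-AML3, a log2 fold change of -0.63 ± 0.04.

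**Figure D3:**
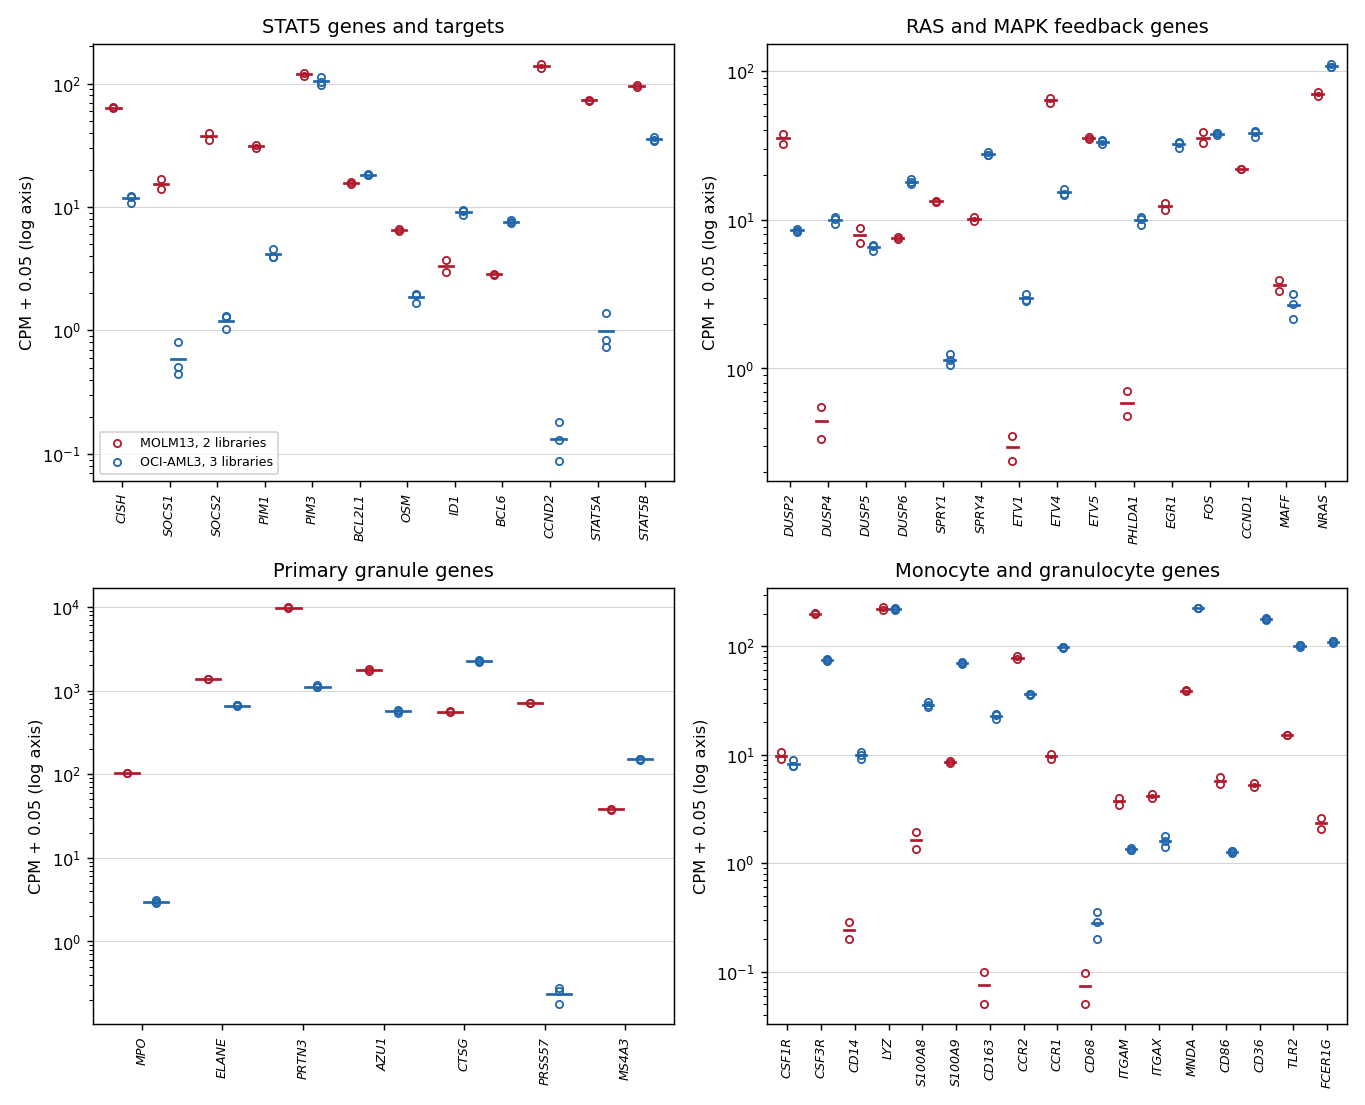
Genes of the STAT5 list, RAS and MAPK feedback genes, primary granule genes and monocyte and granulocyte genes named in the text, in untreated cells. Each circle is 1 library, the bar is the mean of the line, red marks the 2 MOLM13 and blue the 3 OCI-AML3 libraries, and the vertical axes are CPM plus 0.05 on a log scale. CCND2, SOCS2 and PRSS57 are high in MOLM13 and near the bottom in OCI-AML3, whereas CD14 and CD163 show the reverse.

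Genes of primary granules, which neutrophil precursors fill with proteases, were mostly higher in MOLM13. Of 14 tested, 9 were higher and 2 lower, 5 and 1 of them by 4-fold or more, with a median log2 fold change of 0.98. PRTN3, proteinase 3, had 9840 and 9568 CPM in MOLM13, against 1157, 1103 and 1088 CPM in OCI-AML3, a log2 fold change of 3.12 ± 0.03. MPO, myeloperoxidase, had 104 and 104 CPM in MOLM13, against 2.92, 2.82 and 3.11 CPM in OCI-AML3, a log2 fold change of 5.14 ± 0.06. PRSS57, a serine protease of the same granules, had 718 and 701.5 CPM in MOLM13, against 0.23, 0.21 and 0.13 CPM in OCI-AML3, a log2 fold change of 11.90 ± 0.07. The proteases were split, however. ELANE, neutrophil elastase (1.05 ± 0.03), and AZU1, azurocidin (1.64 ± 0.04), were higher in MOLM13, and CTSG, cathepsin G, was lower, with 565 and 556 CPM in MOLM13 against 2328, 2253 and 2198 CPM in OCI-AML3, a log2 fold change of -2.01 ± 0.03. MS4A3, a membrane protein of granulocyte and monocyte progenitors, was also lower (-1.98 ± 0.04).

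Genes of mature monocytes and granulocytes were mostly lower in MOLM13. Of 36 tested, 22 were lower and 8 higher, 17 and 1 of them by 4-fold or more, and the median log2 fold change was -1.89, or -1.74 with the genes at 0 in MOLM13 set to their bound. CD14, the monocyte coreceptor for endotoxin, had 0.15 and 0.24 CPM in MOLM13, against 9.85, 10.6 and 9.10 CPM in OCI-AML3, a log2 fold change of -5.63 ± 0.24. CD163, a scavenger receptor of macrophages, had 1 count in MOLM13, lower by a ratio of 930.5 (95% counting interval 167 to 36763). The same direction was seen for FCER1G, an adaptor of Fc receptors (-5.58 ± 0.08), the fatty acid receptor CD36 (-5.10 ± 0.06), the calcium-binding proteins S100A8 (-4.17 ± 0.12) and S100A9 (-3.04 ± 0.06), the chemokine receptor CCR1 (-3.35 ± 0.06), the Toll-like receptor TLR2 (-2.73 ± 0.05) and MNDA, a nuclear protein of myeloid cells (-2.53 ± 0.04).

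This was not true of every maturation marker. LYZ had 214 and 228 CPM in MOLM13 and 214, 227 and 220 CPM in OCI-AML3, a log2 fold change of 0.00 ± 0.04, so the lines overlapped. ITGAM, the integrin CD11b, had 3.37 and 3.98 CPM in MOLM13, against 1.27, 1.34 and 1.27 CPM in OCI-AML3, a log2 fold change of 1.51 ± 0.16. ITGAX, the integrin CD11c (1.42 ± 0.16), CD86, a costimulatory ligand (2.22 ± 0.15), and the chemokine receptor CCR2 (1.12 ± 0.05) were higher in MOLM13. CSF1R, the receptor that guides monocyte growth, had 10.46 and 9.09 CPM in MOLM13 and 7.80, 7.91 and 8.93 CPM in OCI-AML3 and was not called.

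Transcription factors of the myeloid lineage were evenly divided, with 13 of 31 higher and 13 lower in MOLM13 and a median log2 fold change of 0.00. SPI1, which encodes PU.1, had 425.5 and 401 CPM in MOLM13, against 287, 230 and 228.5 CPM in OCI-AML3, a log2 fold change of 0.73 ± 0.08. CEBPA, the factor of granulocyte commitment, had 364 and 360 CPM in MOLM13, against 188, 135 and 130 CPM in OCI-AML3, a log2 fold change of 1.27 ± 0.11. OCI-AML3 replicate 1 was the highest of its line for both, and also for CEBPB, a factor of inflammatory monocytes, which had 24.1 and 23.95 CPM in MOLM13 against 44.6, 31.1 and 30.2 CPM in OCI-AML3 (-0.55 ± 0.15, but -0.50 and not called under limma-voom). GATA2, a factor of stem and mast cells, had 55.4 and 59.3 CPM in MOLM13, against 3.87, 3.51 and 3.695 CPM in OCI-AML3, a log2 fold change of 3.96 ± 0.07. The late granulocyte factor CEBPE (5.89 ± 0.32), NFE2 (2.53 ± 0.06) and LYL1 (1.35 ± 0.06) were higher in MOLM13, while IRF8, the factor of monocyte and dendritic cell fate, was lower (-1.04 ± 0.03), as was KLF6 (-1.27 ± 0.05).

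Stem and progenitor genes were also divided, with 7 of 13 tested higher and 4 lower in MOLM13. HLF, a factor of long-lived stem cells, had 2.26 and 2.04 CPM in MOLM13 and 0 CPM in OCI-AML3, at least 40.2-fold higher. NPR3, a natriuretic peptide receptor found on stem cells, was higher as well (5.21 ± 0.15), whereas CD93, a receptor of stem cells and monocytes, had 0.30 and 0.24 CPM in MOLM13 against 157, 166 and 164 CPM in OCI-AML3, a log2 fold change of -9.23 ± 0.11. TAL1, a factor of stem and erythroid cells, had 1 count in MOLM13, lower by a ratio of 99.3 (95% counting interval 17.7 to 3932). CD34, the usual stem cell antigen, was at 0 in MOLM13 and at 0.15 to 0.27 CPM in OCI-AML3, so it was hardly expressed in either line. Of the genes of a stem cell score used in AML prognosis, 3 of 12 tested were higher and 7 lower in MOLM13, and the median log2 fold change was -0.97, or -0.57 with the genes at 0 set to their bound.

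Surface antigens differed in both directions, with 12 of 28 tested higher and 9 lower in MOLM13. ITGAL, the leukocyte integrin CD11a, had 428 and 461 CPM in MOLM13, against 17.4, 17.6 and 17.5 CPM in OCI-AML3, a log2 fold change of 4.67 ± 0.04. CD84, a self-binding receptor of leukocytes (8.17 ± 0.17), CLEC12A, a lectin of AML blasts (3.05 ± 0.30), and CD33, the target of an antibody drug (1.11 ± 0.04), were higher in MOLM13. NCAM1, the adhesion molecule CD56, had 15.3 and 16.9 CPM in MOLM13, against 203, 221 and 220 CPM in OCI-AML3, a log2 fold change of -3.74 ± 0.06. CD276, an immune checkpoint ligand, had 2 counts in MOLM13 and 66.8 to 72.3 CPM in OCI-AML3, lower by a ratio of 1422 (95% counting interval 394 to 11746). CD38 was lower too (-1.41 ± 0.07), and CD47, CD4 and the chemokine receptor CXCR4 were not called (CXCR4, at -0.30, was called lower under 5 alternatives, at -0.33 to -0.49).

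WT1, an AML antigen used to follow residual disease, had 95.01 and 91.8 CPM in MOLM13, against 14.3, 13.8 and 14.3 CPM in OCI-AML3, a log2 fold change of 2.73 ± 0.05. In antigen presentation, 4 of 5 tested class II genes were higher in MOLM13 and 0 lower, namely CIITA, the master regulator of class II, RFXANK, HLA-DMA and CD74, the invariant chain. Only CD74 was called at 4-fold, with 223 and 227 CPM in MOLM13 against 47.7, 45.1 and 46.3 CPM in OCI-AML3, a log2 fold change of 2.28 ± 0.04. The class II antigen HLA-DRA itself was at most 0.20 CPM in every library of both lines. In class I, 5 of 15 genes were higher and 3 lower (4 and 4 without scaling factors), B2M was not called, and HLA-C was higher (1.68 ± 0.03), a value that is uncertain because HLA genes are polymorphic and share sequence.

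Inflammatory genes were lower in MOLM13. Of 25 genes of the TNF and NF-κB list, 17 were lower and 6 higher, 8 and 0 of them by 4-fold or more, with a median log2 fold change of -0.96. IL1B, the cytokine interleukin 1 beta, had 0.50 and 0.66 CPM in MOLM13, against 42.2, 43.4 and 43.0 CPM in OCI-AML3, a log2 fold change of -6.19 ± 0.12. CXCL8, the neutrophil chemokine interleukin 8, had 2.97 and 3.79 CPM in MOLM13, against 72.6, 79.0 and 79.8 CPM in OCI-AML3, a log2 fold change of -4.51 ± 0.09. The monocyte chemokine CCL2 (-5.11 ± 0.32), NFKBIZ, an atypical inhibitor of κB that activates late genes (-4.08 ± 0.09), and NFKB2 (-1.26 ± 0.06) were lower as well. TNF itself had 64.0 and 72.9 CPM in MOLM13, against 29.7, 30.01 and 29.9 CPM in OCI-AML3, a log2 fold change of 1.20 ± 0.06, and its feedback inhibitor TNFAIP3 was also higher in MOLM13 (1.00 ± 0.05).

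Of 30 interferon-stimulated genes tested, 19 were lower and 4 higher in MOLM13, 7 and 1 of them by 4-fold or more. The median log2 fold change was -0.87, and under limma-voom with quantile normalization 15 genes were lower. MX2, a GTPase that blocks viruses at the nucleus, had 4.73 and 6.44 CPM in MOLM13, against 94.6, 94.7 and 94.3 CPM in OCI-AML3, a log2 fold change of -4.08 ± 0.08. OAS2, a sensor of double-stranded RNA, had 1 count in MOLM13, lower by a ratio of 336 (95% counting interval 60.2 to 13268), IFIT3, an RNA-binding effector, had a log2 fold change of -3.32 ± 0.21, and the transcription factor IRF1 one of -1.29 ± 0.05. ISG15, the ubiquitin-like protein, had 13.2 and 11.1 CPM in MOLM13, against 4.82, 4.48 and 4.60 CPM in OCI-AML3, a log2 fold change of 1.39 ± 0.10. SLFN11, a blocker of stressed replication, was the only member called higher by 4-fold (2.20 ± 0.05).

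Of 25 p53 targets and CDK inhibitors, 14 were lower and 4 higher in MOLM13, with 6 lower and 0 higher by 4-fold or more. CDKN2A, which encodes p16 and ARF, had 0 CPM in both MOLM13 libraries, against 7.06, 7.32 and 6.68 CPM in OCI-AML3, at least 47.9-fold lower. Its neighbours on chromosome 9 were low too. CDKN2B, which encodes p15, was at 0 in MOLM13, at least 18.4-fold lower, and MTAP, an enzyme of the methionine salvage pathway, had 20.8 and 20.1 CPM in MOLM13 against 82.6, 83.3 and 82.1 CPM in OCI-AML3, a log2 fold change of -2.02 ± 0.05. Copy number was not measured in these libraries. CDKN1A, the p53 target p21, was higher in MOLM13 (1.27 ± 0.04), while BTG2 (-2.43 ± 0.07) and MDM2, the ubiquitin ligase of p53 (-0.99 ± 0.05), were lower.

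In the cell cycle list 8 of 16 genes were higher and 3 lower in MOLM13 (4 and 4 without scaling factors), and the cycling markers MKI67, CCNB1 and CCNA2 were not called. E2F2, an activator of S phase genes, was higher (2.70 ± 0.06). The D cyclins were split, since CCND2 was higher in MOLM13, as given above, CCND3 was higher by less (0.46 ± 0.03, but 0.27 without scaling factors and 0.29 under limma-voom, both under the fold limit), and CCND1, with 21.8 and 22.01 CPM in MOLM13 against 36.3, 38.8 and 39.5 CPM in OCI-AML3, was lower (-0.80 ± 0.06). Of 20 BCL2 family and inhibitor genes, 7 were higher and 9 lower in MOLM13. MCL1, a survival protein, had 177 and 186 CPM in MOLM13, against 457, 463 and 451 CPM in OCI-AML3, a log2 fold change of -1.33 ± 0.04. BCL2, the target of venetoclax, had 157 and 170 CPM in MOLM13 and 131, 133 and 134 CPM in OCI-AML3, and its log2 fold change of 0.30 ± 0.04 was under the fold limit. BCL2L11, the killer protein BIM, was lower (-1.81 ± 0.04), and BIK, another killer protein, was higher (4.77 ± 0.10).

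MYC and genes of growth were higher in MOLM13. MYC had 1679 and 1760 CPM in MOLM13, against 522, 528 and 523 CPM in OCI-AML3, a log2 fold change of 1.71 ± 0.03. Of 28 MYC network and nucleolar genes, 17 were higher and 5 lower (13 to 17 and 3 to 5 over the alternatives, the fewest higher without scaling factors), none by 4-fold, with a median log2 fold change of 0.41. FBL, the methyltransferase of ribosomal RNA (1.68 ± 0.04), ODC1, the first enzyme of polyamine synthesis (1.25 ± 0.04), and the nucleolar proteins RRP9 (0.97 ± 0.04) and NOP56 (0.88 ± 0.03) were higher, whereas the MYC antagonists MGA (-0.997 ± 0.086) and MXD4 (-0.49 ± 0.05) were lower.

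Where genes sat on the chromosomes went with the direction of the difference. By chromosome, the median log2 fold change ran from -0.42 on chromosomes 4 and 7 and -0.40 on chromosome 1 to 0.32 on chromosome 8, 0.39 on chromosome 6, 0.53 on chromosome 13 and 0.61 on chromosome 19. On chromosome 19, 699 of 1251 tested genes were higher in MOLM13 (55.9%, against 31.3% over all autosomes), and on chromosome 13, 162 of 306 (52.9%). On chromosome 4, 283 of 575 were lower (49.2%, against 35.9%). These are descriptions without a test, since genes of a chromosome are not replicates. FLT3, DACH1 and CCNA1 lie on chromosome 13, MYC on chromosome 8, MYB on chromosome 6 and the protease genes PRTN3, ELANE, AZU1 and PRSS57 on chromosome 19, so those genes lie on chromosomes where many genes were higher in MOLM13, and the part of this in their values was not tested.

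**Figure D4:**
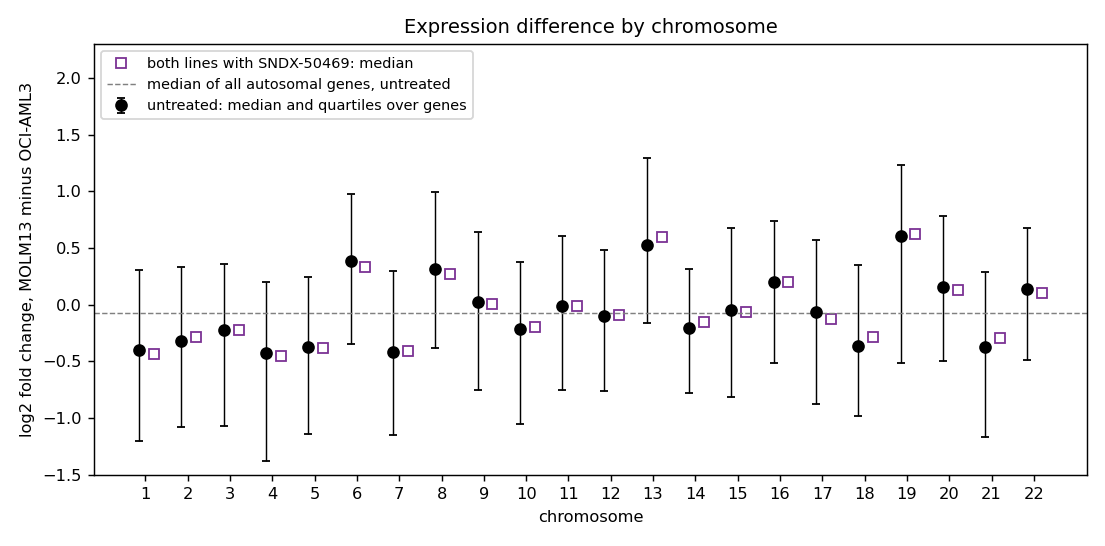
Difference between the lines by chromosome. Filled circles give the median log2 fold change (MOLM13 minus OCI-AML3) of the tested genes of each autosome in untreated cells, with whiskers from the lower to the upper quartile over genes, open squares give the median in the libraries with SNDX-50469, and the dashed line is the median of all autosomal genes, -0.08. Chromosomes 6, 8, 13 and 19 lie furthest above the line in both sets of libraries, and chromosomes 9, 11, 15, 16, 20 and 22 also lie above it in both.

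The same lines treated with 500 nM SNDX-50469 for 16 h gave 5 libraries that the untreated comparison did not use, 2 of MOLM13 and 3 of OCI-AML3. In these libraries, 5282 of 16876 autosomal genes tested were higher in MOLM13 (31.3%) and 6144 were lower (36.4%). Among genes tested in both sets, 4395 of the 5028 called higher in untreated MOLM13 were also called higher with the drug (87.4%), which is 87.4% of the 5031 called higher there. Of the 5791 called lower in untreated MOLM13, 5186 were lower with the drug too (89.6%, and 88.1% of the 5888 there), and 32 and 4 genes were called in the opposite direction. Of genes called at 4-fold or more, 886 of 1043 higher and 1672 of 1949 lower were called at 4-fold again, and 0 turned round.

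Most members of the lists kept their side in the drug-treated libraries. HOXA13 had a log2 fold change of -3.22 with the drug and -3.60 without, PRSS57 one of 11.71 and 11.90, FLT3 one of 3.60 and 3.30, and MPO one of 6.11 and 5.14. Differences in several list members were of another size with the drug. CCND2 had a log2 fold change of 5.89 with the drug and 10.67 without, ZNF521 one of 8.42 and 11.60, HOXA7 one of 0.85 and 2.96, and PBX3 one of 0.73 and 1.72. CCND2 and ZNF521 were near 0 in untreated OCI-AML3, so their fitted untreated values rest on few counts and their sizes are uncertain. MEIS1, not called between untreated lines, had a log2 fold change of -1.95 with the drug. For these genes the change between conditions was not tested.

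**Figure D5:**
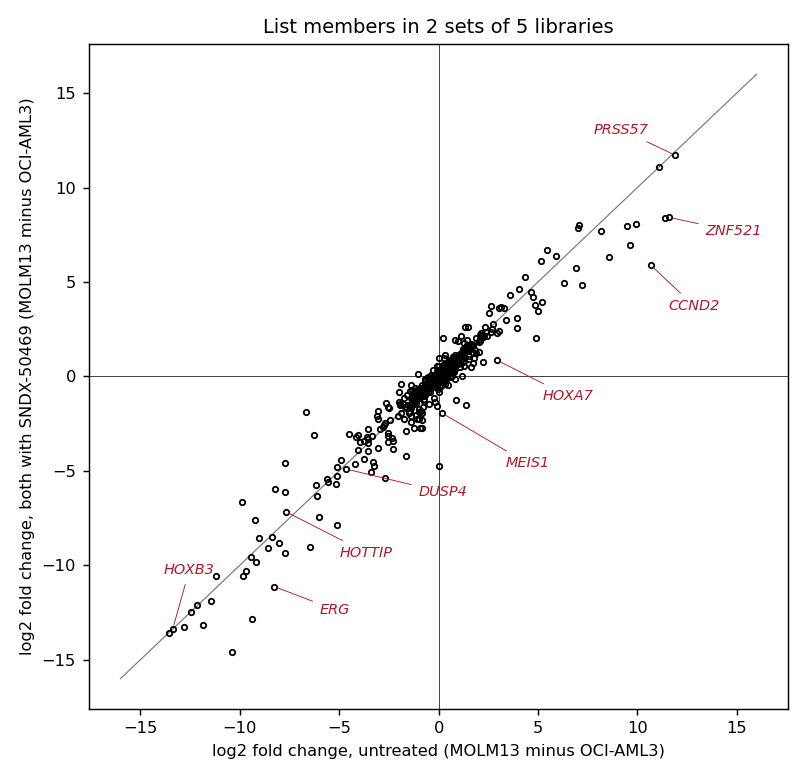
The 516 list members tested in both sets of libraries. The vertical axis is the log2 fold change (MOLM13 minus OCI-AML3) with SNDX-50469 and the horizontal axis that of untreated cells, each point is 1 gene, the diagonal marks equal values, and genes at or near 0 in a line are drawn at fitted values, which depend on the prior count and are no bounds. Most points lie near the diagonal, and MEIS1, CCND2 and HOXA7 lie below it.

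MV4-11, a further MLL-rearranged line grown in IMDM medium, shares the untreated state, and its control values are given beside those of both lines for a few genes. FLT3 had 482 and 513 CPM in untreated MV4-11, STAT5A 71.1 and 70.0 CPM, SOCS2 51.0 and 48.0 CPM, and CCND2 51.0 and 50.9 CPM. HOXB4 had 9.93 and 7.91 CPM and HOXB3 1.35 and 1.86 CPM, between the values of MOLM13 and OCI-AML3. HOXB7 (1.90 and 2.27 CPM) and HOXB6 (0.55 and 0.28 CPM) also lay between them. The rest of the HOXB list was near 0 in MV4-11 as in MOLM13. HOXB2, HOXB5, HOXB8, HOXB9, HOXB13, HOXB-AS1 and HOXB-AS3 had at most 0.06305 CPM in either MV4-11 library. ZNF521 and DACH1 were at 0 CPM in both MV4-11 libraries, unlike in MOLM13, and CDKN2A had 104 and 99.2 CPM.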

How the data were processed

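Total RNA of cultured AML lines was sequenced in bulk. The authors deposited 1 table of read counts per gene, whole numbers and not normalized, for 58037 Ensembl gene identifiers. The submitters' processing notes name STAR and hg38, while the study's methods name TopHat2, Cufflinks and limma after quantile normalization, and call genes at 1.25-fold and p under 0.05. The counting program, annotation release and strand setting were not given in the sources used here. Overlapping or antisense genes can therefore not be told apart, near-identical copies and HLA genes are uncertain, and fusion reads count to both partners. Symbols and positions came from the gene tables provided (40931 of 58037 identifiers matched, and 0.372% of counts fell on the rest), and genes of the autosomes were reported.

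Untreated MOLM13 (n = 2) and OCI-AML3 (n = 3) libraries were compared with edgeR 4.0.16 in R 4.3.3 (filterByExpr, TMM factors, quasi-likelihood F test, Benjamini-Hochberg adjustment over all 17064 genes tested), in a fit of these 5 libraries only. CPM used TMM-scaled totals, and the SE is the log2 fold change divided by the root of F. Lists of genes, and the members themselves, were chosen with earlier results of these data known. Genes named were drawn from list members and from the 15 largest changes in each direction with at least 10 CPM in every library of the higher line. The 10 highest genes at 0 counts in the other line were a further source, and not every such gene is named. Ratios with 1 to 3 counts in a line have exact 95% counting intervals. Lists have no test, only counts and medians beside those of all genes. The fits were tested on simulated data with known changes in a small share of genes, as many up as down. Scaling with as many differences as these lines show was not tested in this way. Alternatives were other scaling factors, no filter, no fold limit, DESeq2 1.42.0, limma 3.58.1 (voom with quantile normalization), all 18 libraries in 1 fit, OCI-AML3 thinned to the depth of MOLM13, autosomal genes only, the replicate number as a block, and leaving out each library. Of sample columns in the table, 0 were left unused for want of a label. Values of some list members are not reported here.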

Additional observations from a re-analysis of the deposited data

Results flagged for a closer look

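Of the list members called in untreated cells, 3 were called in the opposite direction in the same lines with 500 nM SNDX-50469. The difference between both comparisons was tested for these with edgeR over the 10 libraries, a test added after the data were seen. Because these genes were picked for opposite calls in the same libraries, small p-values were nearly fixed in advance and add no evidence. ISG15 was higher in untreated MOLM13 and lower with the drug. With the drug it had 11.7 and 10.1 CPM in MOLM13, against 30.4, 29.4 and 31.5 CPM in OCI-AML3, and untreated 13.4 and 11.3 CPM in MOLM13, against 4.94, 4.59 and 4.70 CPM in OCI-AML3 on the scale of that fit. The untreated log2 fold change less that with the drug was 2.87 ± 0.12 (SE, adjusted p = 1.52e-12 by edgeR). MEF2C had 44.1 and 43.6 CPM in MOLM13 with the drug, against 101.7, 100.9 and 104.7 CPM in OCI-AML3, and 170 and 175 CPM in untreated MOLM13, against 92.6, 99.0 and 96.4 CPM in OCI-AML3. Its log2 fold changes differed by 2.07 ± 0.06 (adjusted p = 7.73e-16 by edgeR). MAFF, a small MAF factor of stress responses, stayed under 5 CPM in all 10 libraries, and its log2 fold changes of 0.45 untreated and -0.43 with the drug differed by 0.88 ± 0.24 (adjusted p = 0.0144 by edgeR). In untreated cells MAFF had 3.33 and 3.96 CPM in MOLM13 against 2.14 to 3.19 CPM in OCI-AML3, so the gap between the lines was narrow, and the untreated call was lost without MOLM13 replicate 2 (0.32), without OCI-AML3 replicate 2 (0.32) or 3 (0.46), and under 3 of the other settings.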

How the results depend on the processing

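Total counts of calls moved by less than 1.5 times under every alternative run, but those of small lists moved more. Without scaling factors 3 genes of the Menin and MLL complex list were higher instead of 7, 5 of the DOT1L list instead of 8 and 4 of the cell cycle list instead of 8, while 8 chromatin regulators were lower instead of 5. With OCI-AML3 thinned, 3 genes of the MYC list were lower instead of 5. Under limma-voom with quantile normalization, 9 HOXA cluster genes were lower instead of 13, and 15 interferon-stimulated genes instead of 19. There were 10034 to 11789 genes called (10964 as reported, 12638 without the fold limit), 2555 to 3915 at 4-fold or more (3112) and 386 to 414 list members (403), the lowest 2 gene counts with OCI-AML3 thinned to the depth of MOLM13 and the highest at 4-fold without the filter. Leaving out each library gave 10400 to 10696, 2811 to 3151 and 391 to 396, and 10822 to 11014 with SNDX-50469 (11426). With the replicate number as a block there were 10778 genes, 3096 at 4-fold, 400 list members and 11127 with the drug, but same-numbered libraries of the lines correlated at only 0.0942 and 0.0713, so the numbers do not pair them. The median of all autosomal genes shifted by -0.20 without scaling factors and by 0.11 under limma-voom with quantile normalization. Of 2965 values of named genes over the alternatives, 2895 kept direction and call, 20 lost the call, 13 gained it (BCL2, BCL2L1, CSF1R, CXCR4, DUSP5 and HOXA4, each under 1 to 5 alternatives) and 37 changed sign. NPM1, -0.44 under limma-voom, was the only called gene among these 37. The rest were genes near 0, not called in untreated cells. With upper-quartile factors B2M had a log2 fold change of -0.017, CCNA2 -0.023, CD4 -0.0010, LYZ -0.035 and MKI67 -0.00094. Without scaling factors B2M had -0.18, CCNA2 -0.18, CCNB1 -0.16, CD4 -0.16, CD47 -0.12, ETV5 -0.13, LYZ -0.19, MEIS1 -0.010, MKI67 -0.16 and PIM3 -0.013. Without the filter B2M had -0.048, CCNA2 -0.053, CCNB1 -0.029, CD4 -0.031, LYZ -0.065 and MKI67 -0.031, and under limma-voom B2M had -0.19, CCNA2 -0.070, CCNB1 -0.091, CD4 -0.13, LYZ -0.13 and MKI67 -0.16. LYZ had -0.00072 with autosomal genes only. Over single libraries left out, CCNA2 ran from -0.0093 to 0.045, FOS from -0.21 to 0.033, LYZ from -0.041 to 0.053 and MKI67 from -0.023 to 0.093. The causes were not tested. In MOLM13, at less depth, a gene under 0.1464 CPM is within 3 counts of 0.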

Other observations

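Enzymes of serine, folate and amino acid supply were higher in MOLM13 more often than all genes, with 14 of 22 higher and 4 lower, against 31.3% and 35.9% of all autosomal genes tested, and a median log2 fold change of 0.38. PHGDH, the first enzyme of serine synthesis, had 206 and 203 CPM in MOLM13, against 48.0, 48.55 and 46.0 CPM in OCI-AML3, a log2 fold change of 2.11 ± 0.04 (SE). ASS1, argininosuccinate synthase, had 604 and 605 CPM in MOLM13, against 117, 118 and 115 CPM in OCI-AML3, a log2 fold change of 2.37 ± 0.03. The next steps of serine synthesis, PSAT1 (0.73 ± 0.04) and PSPH (0.76 ± 0.05), the mitochondrial folate enzyme MTHFD1L (1.37 ± 0.04) and the glutamine carrier SLC1A5 (1.19 ± 0.04) were higher in MOLM13, while the cystine carrier SLC7A11 (-1.17 ± 0.10) was lower. Cholesterol synthesis was divided, with 5 of 18 genes higher and 7 lower. FDFT1, squalene synthase, had 562.5 and 570 CPM in MOLM13, against 235, 240 and 237 CPM in OCI-AML3 (1.26 ± 0.03), and IDI1, an isomerase of isoprenoid units, had 44.01 and 45.3 CPM against 115, 118 and 117 CPM (-1.39 ± 0.04). Of the TAM receptor kinases, AXL was higher in MOLM13 (3.04 ± 0.16) and MERTK lower (-3.38 ± 0.37), both at under 6 CPM.

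Zinc finger genes of chromosome 19 ran against the rest of that chromosome. This group, the genes whose symbol starts with ZNF or ZFP, was chosen after the genes at 0 in MOLM13 had been seen, so it is a description without a test. Of 227 tested, 47 were higher and 137 lower in MOLM13, with a median log2 fold change of -1.06, whereas of the other 1024 tested genes of chromosome 19, 652 were higher and 158 lower, with a median of 0.76. Over all autosomal genes tested, 31.3% were higher and 35.9% lower. Of the 73 genes at 0 in MOLM13 and at least 10 CPM in OCI-AML3, 15 were zinc finger genes of chromosome 19. Of the 280 at a limit of 1 CPM, 34 were, against 1 of the 54 genes with the reverse pattern and 227 of all 16324 autosomal genes tested. Since the group was picked from the genes at 0 in MOLM13, its number among them adds no evidence. Zinc finger genes of this family lie in clusters and share sequence, so counts of near-identical copies are uncertain.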
